A study of Homo sapiens with 4 samples.

Results

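The neuronal cytoskeleton and growth cone genes are 10 genes used as markers of neuronal differentiation: TUBB3, MAP2, MAPT, DCX, STMN2, GAP43, NEFL, NEFM, INA and MAP1B. They were taken from the count tables by exact gene symbol, 10 of 62696 rows, and each symbol matched 1 row in each of the 4 tables. The tables come from NT2 (NTERA-2) cells, an embryonal carcinoma line of human origin from which neurons can be derived with retinoic acid. The line was grown in medium with serum, and no differentiation step is given in the labels. One library is labelled empty vector with a wild type genotype (called the vector control here), and 3 libraries are labelled HYDIN2 knockdown, replicates 1 to 3. The labels do not say how the knockdown was made, nor whether the replicates were separate cultures, so their spread may be technical. The count columns carry other names than the labels: NT2_Lacz_Control for the vector control, and GKAP_KIF27_Set_1, 2 and 3.

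Axons and dendrites are built on microtubules, polymers of alpha and beta tubulin, and on neurofilaments, which are intermediate filaments. Microtubule-associated proteins bind and stabilise the tubulin lattice, stathmins bind free tubulin dimers and promote disassembly, and GAP43 lies under the membrane of the growth cone, the moving tip of a growing axon. These genes are widely used to follow the formation of neurons from embryonal carcinoma and pluripotent cells. Many neuronal genes are held down in other cells by the repressor REST.

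RefSeq start sites are shown first for the 3 members with a start in the promoter table that were at least 2-fold higher in labelled knockdown replicates 1 and 2. Upstream and downstream refer to the starts of a gene in that table only. The annotated MAP2 gene begins at 209424058, upstream of the MAP2 window shown. The 250 bases before each start are printed 5′ to 3′ on the gene's strand from build GRCh38.p14, in lower case. Capitals mark matches, on either strand, to GGGCGG, known as the GC box, to TATAAA, known as the TATA box, and to CCAAT.

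MAP1B, upstream start (chr5:72107225-72107474, plus strand): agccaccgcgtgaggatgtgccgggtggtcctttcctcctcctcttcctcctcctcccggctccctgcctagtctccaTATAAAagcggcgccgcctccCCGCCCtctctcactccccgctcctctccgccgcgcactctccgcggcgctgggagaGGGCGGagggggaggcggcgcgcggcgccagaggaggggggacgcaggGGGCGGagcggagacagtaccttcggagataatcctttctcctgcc
MAP1B, downstream start (chr5:72179537-72179786, plus strand): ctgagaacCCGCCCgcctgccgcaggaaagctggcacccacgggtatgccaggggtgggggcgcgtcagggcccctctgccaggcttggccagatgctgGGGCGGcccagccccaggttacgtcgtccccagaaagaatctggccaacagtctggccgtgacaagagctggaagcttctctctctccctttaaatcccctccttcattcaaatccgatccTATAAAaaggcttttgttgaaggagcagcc
MAP2, most upstream start (chr2:209579082-209579331, plus strand): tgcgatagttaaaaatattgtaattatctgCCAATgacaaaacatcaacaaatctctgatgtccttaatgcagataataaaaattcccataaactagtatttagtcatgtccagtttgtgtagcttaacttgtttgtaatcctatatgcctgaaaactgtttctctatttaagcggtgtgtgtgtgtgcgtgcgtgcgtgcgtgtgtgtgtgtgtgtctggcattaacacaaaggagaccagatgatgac
DCX, most upstream start (chrX:111412193-111412442, minus strand): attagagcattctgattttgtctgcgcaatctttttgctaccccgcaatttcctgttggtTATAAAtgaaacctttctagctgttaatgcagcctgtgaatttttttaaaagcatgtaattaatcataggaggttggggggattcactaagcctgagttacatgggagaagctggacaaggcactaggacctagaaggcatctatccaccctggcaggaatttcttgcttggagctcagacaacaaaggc

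Of the 10 members, 6 had entries in the promoter table, with 12 start sites in all. Both MAP1B windows held TATAAA, which began 172 bases before the upstream start and 30 bases before the downstream start, and both held GGGCGG. Among the 12 member windows, TATAAA was found in 3, GGGCGG in 4 and CCAAT in 4, on either strand. Among all 35116 windows of this length the shares were 10.7%, 42.6% and 32%. The MAP1B windows had a GC content of 70% and 60.4%. The MAP2 and DCX windows shown had 37.6% and 42.8%, and the median over all windows was 58%. The MAP2 and DCX windows shown held no GGGCGG. The E-box CAGCTG, bound by proneural factors, was in 1 of the 12 member windows, that of INA, and in 14% of all windows. TTCAGCACC, the left part of the RE1 element bound by REST, was in 0 of 12 member windows and in 0.288% of all windows. At so low a share, 12 windows are too few to tell the members from other genes. The sequences are a description, and gene counts do not tell which start was used.

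Library totals, a measure of depth, ran from 25181737 counts for the vector control to 62904698 for labelled knockdown replicate 1. HYDIN2, the labelled target, had 12 counts in the vector control and 150, 112 and 11 in labelled knockdown replicates 1, 2 and 3, or 0.50 CPM (counts per 1000000 of the scaled library total) against 2.41, 1.88 and 0.352 CPM. It was thus higher in 2 of the 3 libraries labelled knockdown, and directions below are those of the libraries as labelled. Labelled replicates 1 and 2 were 2-fold or more apart in 0.302% of 15880 genes. Replicate 3 stood apart from them, with 21.6% and 22.9% of genes at least 2-fold different. The 10 embryonal carcinoma markers were detected in each library, with a summed level from 8000 to 9678 CPM. The sum does not show how single markers moved. Their median log2 difference from the vector control was -0.08, -0.03 and -0.85 in labelled replicates 1, 2 and 3. Above the vector control in all 3 were 2 of the 10 and below it 5, against 30.1% and 34.2% of all genes. In replicate 3 PODXL had 3865 CPM against 1838 CPM in the vector control, and DPPA4 had 604 against 1398 CPM. Of 13 neuron markers outside the member list, CHGA and SLC17A6 were listed at 0 in replicate 3, and the list's summed level ran from 460 to 658 CPM. Of 8 glial markers, S100B was at 0 in replicate 3.

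Levels of different genes were compared per length, as CPM per kilobase of the longest annotated transcript. In the vector control INA, an intermediate filament of developing neurons, was the most abundant member with 39.2 CPM per kilobase. MAP1B followed with 29.4, GAP43 with 27.7 and NEFL with 14.2 CPM per kilobase, and the counting intervals of MAP1B and GAP43 overlapped. NEFM, DCX, MAP2 and TUBB3 lay between 1.83 and 0.569 CPM per kilobase, in that order, and DCX, MAP2 and TUBB3 overlapped with their neighbours. MAPT and STMN2 were lowest with 0.159 and 0.15 CPM per kilobase and could not be told apart. In each labelled knockdown library MAP1B came first instead, with 71.9, 68.0 and 96.6 CPM per kilobase in replicates 1, 2 and 3, and INA second with 50.9, 50.4 and 41.9. GAP43 and NEFL kept the third and the fourth place. DCX came next in replicates 1 and 2 with 3.05 and 2.92 CPM per kilobase, while in replicate 3 it had 1.23, behind MAP2 with 3.55 and NEFM with 1.59, and its counting interval overlapped those of NEFM and TUBB3.

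Placed among the protein-coding genes tested, MAP1B was at percentile 83.7 of length-scaled levels in the vector control and at percentiles 94.5, 93.6 and 97.2 in labelled replicates 1, 2 and 3. INA was between percentiles 87.8 and 91.3 in the 4 libraries. GAP43 stayed between 80.4 and 85.8. At the other end, TUBB3 lay between percentiles 8.22 and 15.2 and MAPT at or under 1.3. Abundant neuronal cytoskeleton transcripts were thus measured in the vector control as well.

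**Figure D1:**
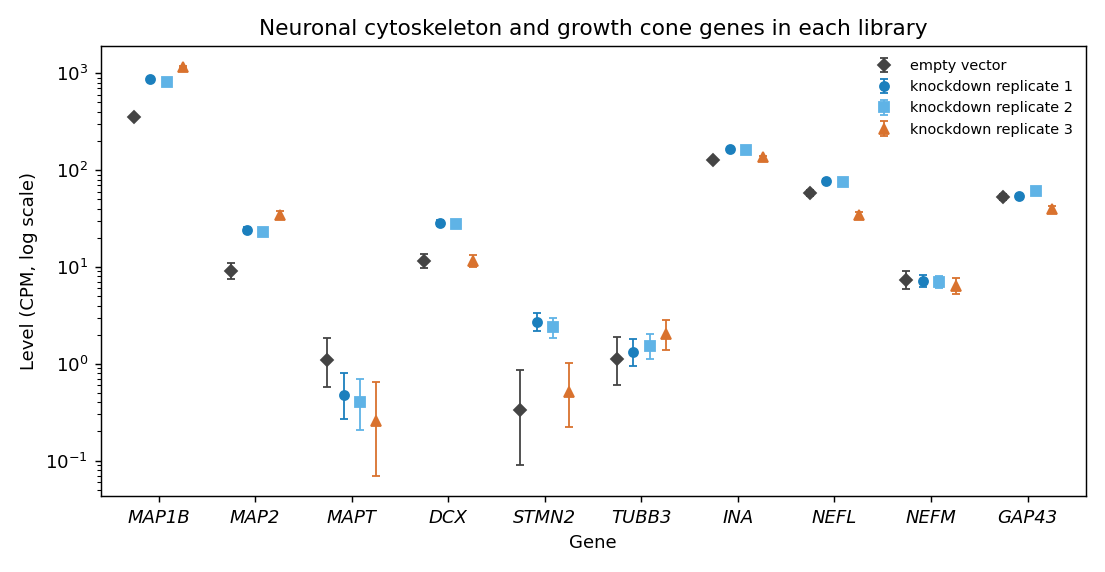
Level of each member in each library (y axis, CPM, log scale), with 95% counting intervals as bars. MAP1B and MAP2 lie higher in all 3 labelled knockdown libraries than in the vector control, DCX and STMN2 lie higher in labelled replicates 1 and 2, and MAPT lies lower in all 3.

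The comparison asked which members lay 2-fold or more above, or 2-fold or more below, the vector control in every one of the 3 labelled knockdown libraries. With 1 empty vector library there is no replicate check on the control side. Genes entered at a mean CPM of at least 1 over the 2 groups, which 9 of the 10 members passed; MAPT did not. MAP1B and MAP2 were higher by this rule, 2 of 9 members, against 3.66% of 15880 genes. None was lower, against 2.72%, so 2 of 9 passed in either direction, against 6.38%. With total counts in place of scaled totals, 734 genes were higher and 312 lower, against 581 and 432 here, and MAP1B and MAP2 remained the members that passed. At any size, 5 of 9 members lay above the vector control in all 3 libraries, against 30.1%. In replicate 1 alone 4 members were 2-fold higher and 0 lower, against 11.3% and 7.5% of genes, and in replicate 2 alone likewise 4 and 0, against 10.4% and 6.7%. In replicate 3 alone the numbers were 2 and 0, against 11.3% and 15.9%. In replicates 1 and 2 taken without replicate 3, 4 members were 2-fold higher, MAP1B, MAP2, DCX and STMN2, against 9.55% of the same 15880 genes. DCX and STMN2 were 2-fold higher in replicates 1 and 2 but not in 3, as were 5.89% of genes. STMN2 passed the CPM minimum only through replicates 1 and 2, so in the counts of 4 above it had to differ. The median over the 9 members of the mean log2 difference was 0.49, and that over all tested genes was -0.02. By library, the members' median was 0.41, 0.42 and 0.09 in replicates 1, 2 and 3, and the median of all genes was 0.03, 0.05 and -0.15. The members were proposed with earlier results of these data in view, so these counts describe the list. In bulk RNA, more cells of a type and more RNA per cell cannot be told apart.

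MAP1B (ENSG00000131711.15; chromosome 5, 72107234 to 72209570, plus strand of GRCh38) encodes the microtubule-associated protein that appears first in growing axons. It had 354 CPM in the vector control and 866, 818 and 1163 CPM in labelled replicates 1, 2 and 3. All 3 lay above the vector control, replicate 3 highest. Over the 3 labelled knockdowns the level averaged 949 ± 187 CPM (SD, n = 3). Ratios to the vector control were 2.45 (95% interval 2.37 to 2.53), 2.31 (2.24 to 2.39) and 3.29 (3.18 to 3.40) in replicates 1, 2 and 3. These intervals, exact binomial on read pairs, cover counting error only and compare libraries.

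MAP2 (ENSG00000078018.22; chromosome 2, 209424058 to 209734118, plus strand) encodes the microtubule-associated protein that marks dendrites. Its level was 9.17 CPM in the vector control and 24.0, 22.8 and 34.5 CPM in labelled replicates 1, 2 and 3. The order of the libraries was that of MAP1B. The labelled knockdown mean was 27.1 ± 6.41 CPM (SD, n = 3), and the mean log2 difference was 1.53 ± 0.32 (SD, n = 3), beside 1.41 ± 0.27 for MAP1B. MAP2 stood at 2.62 (2.14 to 3.23), 2.49 (2.03 to 3.07) and 3.76 (3.06 to 4.66) times the control level.

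MAPT (ENSG00000186868.18; chromosome 17, 45894382 to 46028334, plus strand) encodes tau, the microtubule-associated protein of axons. It had 26 counts in the vector control and 30, 24 and 8 counts in labelled replicates 1, 2 and 3, or 1.08 CPM against 0.482, 0.402 and 0.256 CPM. All 3 lay below the vector control, at log2 differences of -1.10, -1.34 and -1.91. The interval of the ratio in replicate 1 reached 1.02, while those of replicates 2 and 3 ended at 0.882 and 0.765. MAPT entered only at a mean CPM of 0.1, where it was the 1 member that was lower, against 3.89% of 26586 genes.

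DCX (ENSG00000077279.20; chromosome X, 111293779 to 111412429, minus strand) encodes doublecortin, which binds microtubules in migrating young neurons. It had 11.7 CPM in the vector control and 28.7, 27.5 and 11.5 CPM in labelled replicates 1, 2 and 3. Replicates 1 and 2 were high, and replicate 3 lay at the control level. DCX was 2.46 (2.05 to 2.96) and 2.36 (1.97 to 2.84) times as high in replicates 1 and 2 as in the vector control, and the ratio in replicate 3 was 0.988 (0.788 to 1.24). Its mean log2 difference, 0.84 ± 0.74 (SD, n = 3), was 1.26 without replicate 3.

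STMN2 (ENSG00000104435.14; chromosome 8, 79610814 to 79666175, plus strand) encodes stathmin 2, a regulator of microtubule stability in growth cones. It had 8 counts in the vector control and 169, 142 and 16 counts in labelled replicates 1, 2 and 3, or 0.333 CPM against 2.71, 2.38 and 0.512 CPM. As for DCX, replicates 1 and 2 were high. The ratios were 8.14 (3.07 to 30.6), 7.14 (2.67 to 26.9) and 1.54 (0.412 to 6.97), so a difference in replicate 3 was not detectable at this depth. STMN2 passed the CPM minimum only through replicates 1 and 2, and a gene that enters in this way has to differ. Its mean log2 difference was 2.03 ± 1.28 (SD, n = 3), and 2.77 without replicate 3.

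TUBB3 (ENSG00000258947.8; chromosome 16, 89921392 to 89938761, plus strand) encodes class III beta tubulin, the neuronal beta tubulin. It had 27, 82, 91 and 63 counts in the vector control and labelled replicates 1, 2 and 3, or 1.12, 1.32, 1.52 and 2.02 CPM. The 3 labelled knockdown values were above that of the vector control, but the intervals of all 3 ratios, 1.17, 1.36 and 1.79, included 1. The level of TUBB3 is uncertain. In GENCODE 29, 35.8% of its exonic bases are shared with ENSG00000198211, an annotated protein-coding gene on the same strand that had 0 counts in all 4 libraries. How reads in the shared part were assigned is not given in the sources used here.

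MAP1B made up most of the microtubule-associated members' transcripts in each library. It took 92.6% of the summed CPM per kilobase of MAP1B, MAP2, MAPT and DCX in the vector control and 92.8%, 92.7% and 95.3% in labelled replicates 1, 2 and 3. The share of DCX was 3.91%, 3.93%, 3.98% and 1.21% in the same order. The share of MAPT was 0.501% in the vector control and 0.0912%, 0.0804% and 0.037% in the replicates.

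INA, NEFL and NEFM encode intermediate filament subunits of neurons, and none of them was 2-fold different in any labelled knockdown library. INA (ENSG00000148798.11; chromosome 10, 103277163 to 103290351, plus strand) had 127 CPM in the vector control and 164, 163 and 135 CPM in labelled replicates 1, 2 and 3. Its ratios were 1.30 (1.22 to 1.37), 1.28 (1.21 to 1.36) and 1.07 (0.999 to 1.14), a small excess in replicates 1 and 2 alone.

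NEFL (ENSG00000277586.4; chromosome 8, 24950955 to 24957110, minus strand), the light neurofilament chain, had 57.9 CPM in the vector control and 77.1, 75.5 and 34.1 CPM in labelled replicates 1, 2 and 3. Replicates 1 and 2 lay above the vector control and replicate 3 below it. The ratios were 1.33 (1.22 to 1.45), 1.31 (1.20 to 1.42) and 0.588 (0.525 to 0.660). At 0.01 ± 0.67 (SD, n = 3), its log2 difference averaged less than its SD. NEFM (ENSG00000104722.14; chromosome 8, 24913012 to 24919098, plus strand), the medium chain, had 7.37 CPM in the vector control and 7.20, 7.05 and 6.40 CPM in the labelled replicates. All 3 NEFM intervals included 1, and together they ran from 0.646 to 1.26.

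The make-up of the filament transcripts followed from these levels. INA took 71.0% of the summed CPM per kilobase of INA, NEFL and NEFM in the vector control, 71.1% and 71.3% in labelled replicates 1 and 2, and 80.8% in replicate 3. The share of NEFL was 25.7%, 26.4%, 26.2% and 16.1% in the same order. NEFM stayed between 2.48% and 3.32%. Replicates 1 and 2 thus had the filament make-up of the vector control to within 1 percentage point for INA and NEFL.

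GAP43 (ENSG00000172020.13; chromosome 3, 115623324 to 115721490, plus strand) encodes the growth-associated protein of growth cones. It had 52.7 CPM in the vector control and 54.7, 61.0 and 39.4 CPM in labelled replicates 1, 2 and 3, so the control value lay inside their range. The ratios were 1.04 (0.945 to 1.14), 1.16 (1.06 to 1.27) and 0.747 (0.667 to 0.836). On the log2 scale GAP43 averaged a difference of -0.05 ± 0.33 (SD, n = 3).

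**Figure D2:**
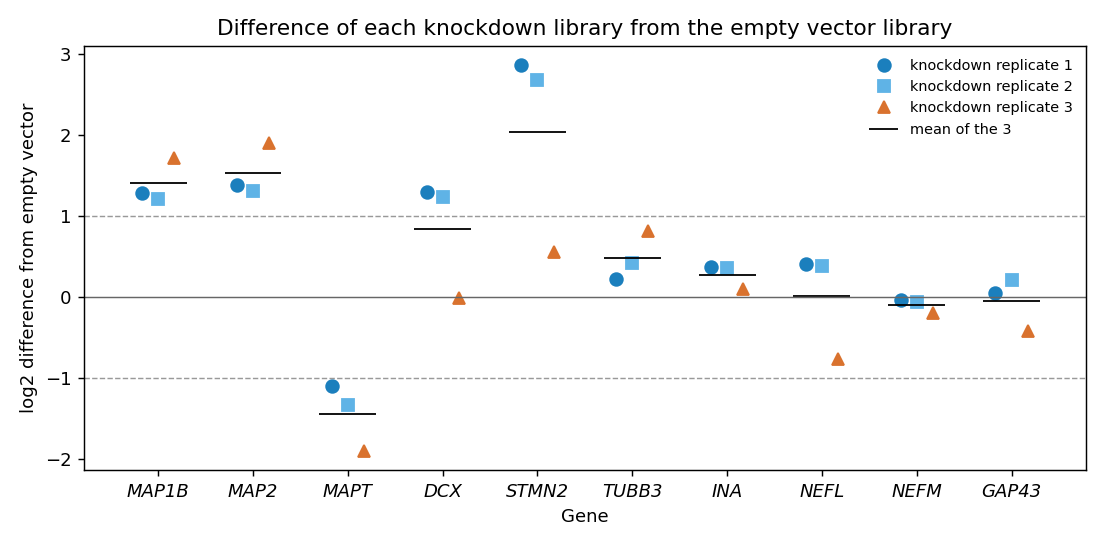
Log2 difference of each labelled knockdown library from the vector control (y axis) for each member, with the mean of the 3 as a line and dashed lines at 2-fold. All 3 points of MAP1B and MAP2 lie above the upper dashed line and those of MAPT below the lower one, while DCX, STMN2 and NEFL have replicate 3 apart from the other two.

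The labelled replicates were then set against each other. Between replicates 1 and 2, 0 of the 9 members entered differed 2-fold, against 0.302% of all genes. Between replicate 3 and each of them 3 of 9 members did, against 21.6% and 22.9% of all genes. These were DCX, STMN2 and NEFL, all lower in replicate 3. DCX in replicate 3 was 0.402 (0.341 to 0.472) times its level in replicate 1. STMN2 was at 0.189 (0.0789 to 0.389) and NEFL at 0.442 (0.401 to 0.485) times. MAP1B and MAP2 went the other way, with 1.34 (1.32 to 1.37) and 1.44 (1.28 to 1.61) times the replicate 1 level. The 8 glial markers had a summed level of 95.7 CPM in the vector control and 162, 169 and 55.6 CPM in replicates 1, 2 and 3. Their part in the pattern of DCX, STMN2 and NEFL was not tested.

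The libraries differed by transcript length, and MAP1B, MAP2 and DCX have the longest transcripts of the 10 members, with 12036, 9711 and 9405 nt. Across 15485 genes, which are not independent replicates, Spearman's rho between transcript length and log2 difference was 0.35, 0.30 and 0.46 in labelled replicates 1, 2 and 3. Of 943 tested genes with a transcript of at least 9000 nt, 17.2% were higher by the 2-fold rule, and their median log2 difference was 0.70. Once smooth trends against length and GC content of the transcript were taken out, the mean difference of MAP1B was 0.67 (0.61, 0.58 and 0.83 in replicates 1, 2 and 3) and that of MAP2 was 0.91 (0.76, 0.74 and 1.24). Both stayed above 0 in each library, and neither passed the 2-fold rule. STMN2, with 2223 nt, was then at 3.01, 2.77 and 1.07 and the 1 member past 2-fold in all 3, against 2.96% of genes. This is a description, since it entered through replicates 1 and 2, and its value in replicate 3 rests on 16 counts against 8. DCX was at 0.69, 0.67 and -0.67, and TUBB3 at 0.57, 0.72 and 1.45.

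**Figure D3:**
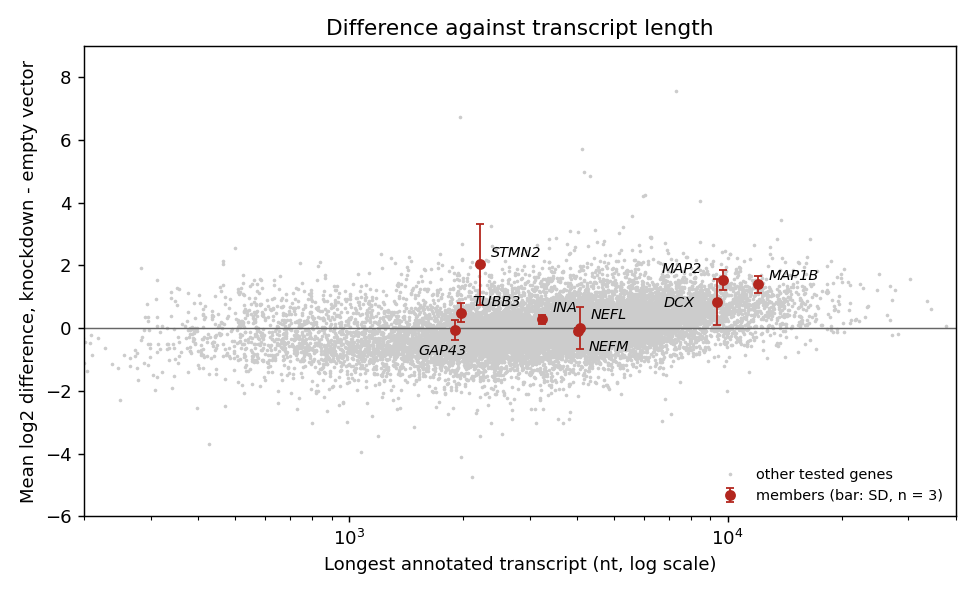
Mean log2 difference between the labelled knockdown libraries and the vector control (y axis) against the longest annotated transcript (x axis, nt, log scale) for all tested genes, with the 9 members entered in red and their SD over 3 libraries as bars. MAP1B and MAP2 lie among long transcripts whose differences are mostly above 0, and STMN2 lies above most genes of its length.

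The other genes of the neuronal cytoskeleton were described from lists. Most tubulins lay lower: 11 of the 12 tested lay below the vector control in all 3 labelled knockdown libraries, against 34.2% of all genes. By the 2-fold rule 2 of 12 were lower, against 2.72% of genes, and in replicates 1 and 2 alone 8 were lower, against 5.49%. Their median log2 difference was -1.06. After trend removal it was -0.79, and 0 of 12 were lower by the 2-fold rule, against 1.45% of genes. TUBA1C, an alpha tubulin, had 234 CPM in the vector control and 53.2, 57.0 and 99.5 CPM in labelled replicates 1, 2 and 3. TUBB4A, a beta tubulin of neurons and oligodendrocytes, had 17.2 CPM against 5.30 ± 3.31 CPM (SD, n = 3). The count of 11 and a median below 0 held under RLE, total-count and upper quartile scaling. The summed CPM of the 14 tubulins was 1982 in the vector control and 906, 948 and 1115 in the replicates. Tubulin genes have near-identical copies and processed pseudogenes, so their counts can be split or shared.

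Among 25 tested microtubule-associated proteins and stathmins, 3 were higher and 1 was lower, against 3.66% and 2.72% of all genes. MAP1A, the relative of MAP1B found in mature neurons, had 13.8 CPM in the vector control and 46.1, 39.9 and 71.2 CPM in labelled replicates 1, 2 and 3. DCLK2, a doublecortin-like kinase, had 0.50 CPM against 2.51, 2.01 and 1.73 CPM, from 12 counts in the vector control. DCLK2 passed the CPM minimum only through the labelled knockdown libraries, and a gene that enters in this way has to differ. CAMSAP2, which caps microtubule minus ends, had 85.9 CPM against 192, 179 and 220 CPM. MAP7, which recruits kinesin to microtubules, was lower, with 16.5 CPM against 6.52, 6.57 and 3.97 CPM. The list's median log2 difference was 0.26, and -0.01 after trend removal, with 2 higher and 1 lower, against 2.96% and 1.45% of genes. STMN1, the broadly expressed relative of STMN2, was looked up after its values were seen and had 1376 CPM against 491, 547 and 710 CPM.

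Of the growth cone and axon guidance genes, the longest list, 10 of 42 tested were higher and 0 lower, against 3.66% and 2.72% of all genes. In replicates 1 and 2 alone 12 were higher, against 9.55%, and after trend removal 6, against 2.96%. The median log2 difference was 0.61, or 0.26 after trend removal. The list's median transcript had 6368 nt, and of all genes with a transcript of at least 9000 nt 17.2% were higher. NRP1, a receptor for semaphorins and vascular endothelial growth factor, had 4.62 CPM in the vector control and 32.0, 30.5 and 17.4 CPM in labelled replicates 1, 2 and 3. UNC5C, a netrin receptor, had 0.667 CPM against 3.02, 3.08 and 6.18 CPM. SEMA3C, a secreted semaphorin, had 1.58 CPM against 6.75, 5.85 and 15.4 CPM. For NRP1, UNC5C and SEMA3C the mean difference after trend removal was 2.19, 1.82 and 2.23. UNC5C and EPHA7, at 0.667 and 0.9998 CPM in the vector control, passed the CPM minimum only through the labelled knockdown libraries. Both are among the 10 higher genes, and a gene that enters in this way has to differ.

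Of 8 other intermediate filament genes tested, 1 was lower and 0 were higher, against 2.72% and 3.66% of all genes. The lower one was DES, the filament of muscle, with 5.33 CPM against 1.48, 1.31 and 1.44 CPM. None of the 14 axonal motor genes passed the rule, against 6.38% of all genes in either direction. In replicates 1 and 2 alone 2 were higher and 1 was lower, against 9.55% and 5.49%. These were KIF1A and KIF5A, and KIF21B, looked up after their values were seen. In replicate 3 KIF1A and KIF5A lay below the vector control, at log2 differences of -0.35 and -0.16. The motors with the highest mean CPM over the 4 libraries, KIF1B and KIF5B, had mean log2 differences of 0.57 and 0.30, and -0.09 and 0.05 after trend removal. DYNC1I2, a dynein intermediate chain looked up after its values were seen, had 120 CPM in the vector control, the highest of the list there, and 98.3, 104 and 89.3 CPM in the replicates. None of the 10 tested regulators passed either, against the same 6.38%. At such shares, lists this short are too few genes to tell from other genes by the rule. CTDSP2, a phosphatase that acts with REST, had 182 CPM against 307, 294 and 238 CPM. REST had 98.2 CPM in the vector control and 138, 134 and 168 CPM in labelled replicates 1, 2 and 3, a mean log2 difference of 0.57 ± 0.18 (SD, n = 3) that was 0.15 after trend removal. The proneural factors had few counts and did not enter. NEUROD4 had 20 and 14 counts, NEUROG2 6 and 8, and NEUROG1 4 and 2 in labelled replicates 1 and 2, and all 3 had 0 in the vector control and in replicate 3. NEUROD1 had 4 counts in the vector control and 2, 0 and 0 in the replicates.

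**Figure D4:**
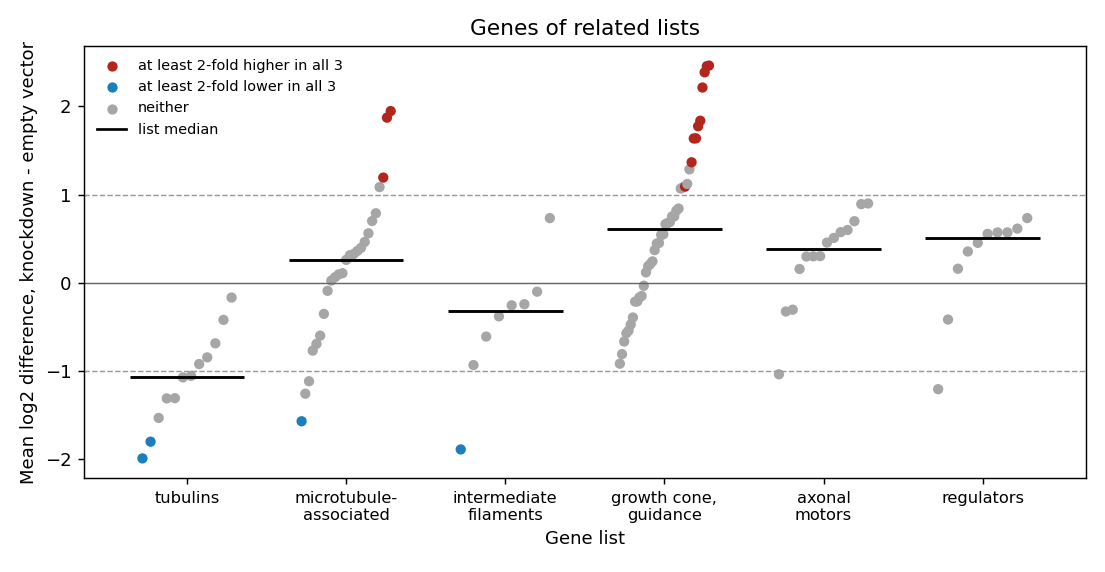
Mean log2 difference between the labelled knockdown libraries and the vector control (y axis) for each tested gene of 6 lists, ordered by value within a list, with the list median as a line. Most tubulins lie below 0, and the growth cone and guidance list has 10 genes at least 2-fold higher in all 3 libraries.

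Markers of neurons and of embryonal carcinoma were set beside the members. None of the 11 neuron markers tested passed the rule in all 3 labelled knockdown libraries, against 6.38% of all genes in either direction. In replicates 1 and 2, 4 were 2-fold higher, against 9.55%. These 4 were looked up after their values were seen. ELAVL3, an RNA-binding protein of neurons, had 0.958 CPM in the vector control and 4.50, 3.99 and 0.544 CPM in labelled replicates 1, 2 and 3. Its relative ELAVL4 had 0.667 CPM against 2.22, 2.01 and 0.064 CPM. Like STMN2, ELAVL3 and ELAVL4 passed the CPM minimum only through replicates 1 and 2, and genes that enter in this way have to differ. SYP, a synaptic vesicle protein, had 5.29 CPM against 17.7, 18.7 and 3.97 CPM, and SYT1, the calcium sensor of synaptic vesicles, 11.1 CPM against 25.9, 25.4 and 12.9 CPM. All 4 were high in replicates 1 and 2 and lower in replicate 3, as DCX and STMN2 were, and their part in the pattern of those members was not tested. The neuron markers with the highest mean CPM, UCHL1 and ENO2, lay the other way. They had 434 and 144 CPM in the vector control and averaged 278 ± 17.9 and 86.0 ± 10.6 CPM (SD, n = 3) over the labelled knockdowns. RBFOX3, also looked up after its values were seen, had 17.7 CPM against 12.3, 12.8 and 6.59 CPM. Of the 11 neuron markers, 3 lay above the vector control in all 3 libraries and 3 below, against 30.1% and 34.2% of genes. Their median log2 difference was 0.05, 0.06 and -0.41 in replicates 1, 2 and 3. Of the 10 embryonal carcinoma markers, 1 was lower and 0 were higher by the rule, against 2.72% and 3.66% of genes. The lower one was DNMT3B, a DNA methyltransferase, with 795 CPM against 347 ± 5.82 CPM (SD, n = 3). LIN28A, an RNA-binding protein of pluripotent cells, had 2844 CPM against 3514, 3620 and 1912 CPM. Of 4 glial markers tested, 0 passed the rule, against 6.38% of genes in either direction, and 4 genes are too few to read this as a result. Of 3 neural progenitor markers tested, PAX6, a transcription factor, was the 1 that was higher, against 3.66% of genes. It had 0 counts in the vector control and 957, 784 and 92 counts in labelled replicates 1, 2 and 3. PAX6 passed the CPM minimum only through the labelled knockdown libraries, so it had to differ.

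The genes with the pattern most like that of the members were sought by the root mean square distance over the 3 log2 differences, among 13353 protein-coding genes. Nearest to the members' median were KLHL20, RAB6B, ZNF791, DNM2 and TBC1D5, at distances from 0.02 to 0.03, and 213 genes lay within 0.1. UPP1, AKAP6 and UBL3 were nearest to DCX, and 26 genes lay within 0.1 of it. ZNF470, KRIT1 and ZNF248 were nearest to TUBB3. Only 3 differences that share the vector control enter each distance, so many genes lie close.

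edgeR's quasi-likelihood test with Benjamini-Hochberg adjustment called 0 of 26029 genes between the control and the 3 labelled knockdowns, and so 0 of the 10 members. At an unadjusted p under 0.05 it found 11.6% of genes and 2 members. MAP1B had an edgeR p of 0.00537 (adjusted p 0.358), higher in 3 of 3 libraries by a fitted log2 difference of 1.42. MAP2 had an edgeR p of 0.00951 (adjusted p 0.359), higher in 3 of 3 by 1.56. The Wald test of DESeq2 called 271 genes and 0 of the 9 members with an adjusted p, the lowest being 0.0545 for MAP1B. The spread in these tests comes from the labelled knockdown libraries alone.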

How the data were processed

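RNA of NT2 cells was depleted of ribosomal RNA and made into dUTP strand-marked libraries, per the labels' protocols. The authors deposited raw counts per gene, 1 table per library. STAR 2.7.11b, featureCounts 2.0.6, DESeq2 and build hg38 are named in the submitters' processing notes, with no role given. The annotation release and the strand setting are not given in the sources used here. Each table was tied to its sample by the series record.

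Counts were scaled to CPM with TMM factors from edgeR 4.0.16 (R 4.3.3) over genes kept by filterByExpr. Log2 CPM used a prior count of 2. Between 65.2% and 68.0% of nonzero counts were even, as would follow were each read of a pair counted, so intervals (95%, exact Poisson or Clopper-Pearson) used counts divided by 2 and cover counting error only. Lengths, GC content and coordinates came from GENCODE 29 (58269 of 62696 identifiers matched), promoters from RefSeq on GRCh38.p14. Trends were removed with lowess (span 0.3, statsmodels 0.14.6), and DESeq2 1.42.0 was an alternative. Simulated counts with known changes were used to check the scripts.

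Named were all members, REST, HYDIN2 and, per list, up to 3 higher and 3 lower genes past the 2-fold rule with the largest smallest difference, or otherwise the 2 most abundant. The members and lists were chosen with earlier results of these data known.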

Additional observations from a re-analysis of the deposited data

How the results depend on the processing

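MAP1B and MAP2 were the members higher by the 2-fold rule under RLE, total-count and upper quartile scaling, prior counts of 0.5 and 5, CPM minimums of 0.1 and 5, and a 1.5-fold rule. The number of members higher was 2 to 4 when 1 labelled knockdown library was left out, and 4 without replicate 3. Among these 4 was STMN2, which entered only through replicates 1 and 2. After removal of length and GC trends the number was 1 (STMN2). The number lower was 0 with each library left out and 1 (MAPT) at a CPM minimum of 0.1. The members' median log2 difference was 0.38 to 0.42 with 1 library left out and 0.28 at a CPM minimum of 5. For all genes, leaving out 1 library gave 616 to 1543 higher and 485 to 845 lower, against 581 and 432 with all 3. A CPM minimum of 0.1 gave 1606 higher and 1035 lower, and one of 5 gave 377 and 254. A 1.5-fold rule gave 1588 and 1527, and a rule on the mean gave 1354 and 1074 and added STMN2 to the members. Trend removal gave 224 lower. The cause was not tested. DESeq2 called 271 genes. edgeR called 0 with TMM (3023 at an unadjusted p under 0.05), with RLE and without a filter. For single members, the mean difference of MAP1B ran from 0.67 to 1.5 and that of MAP2 from 0.91 to 1.65 over 9 alternatives, all above 0. NEFL kept its sign in 5 of 9 alternatives and GAP43 in 6 of 9. No paired analysis was possible because a single control library without a number cannot be matched to 3 others. At 8 to 30 counts, depth limits statements on MAPT, and on STMN2 in the vector control and replicate 3. The list counts without replicate 3 and after trend removal, and the count over long transcripts, were chosen after seeing the data.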

Other observations

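Both neurofilament loci on chromosome 8 carry annotated antisense genes. ENSG00000272163, antisense to NEFM, shares 1706 of the 4381 exonic bases of NEFM. It had 11.2 CPM in the vector control and 11.3, 10.3 and 6.82 CPM in labelled knockdown replicates 1, 2 and 3. ENSG00000272157, antisense to NEFL, shares 490 of 4329 exonic bases and had 1.42 CPM against 2.52, 3.12 and 0.32 CPM, high in replicates 1 and 2 and low in replicate 3, as NEFL was. Without a stated strand setting in the counting, reads of the sense and antisense genes cannot be told apart.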
